A study of Mus musculus with 79 samples.

Results

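Nanog, Prdm14 and Tbx3 are 3 transcription regulators of the naive pluripotent state, the ground state in which mouse embryonic stem cells (ESCs) resemble the early epiblast. They were read by symbol from the deposited gene table, 3 of 35230 genes, and all 3 passed the filter that left 15267 genes for testing. Their levels were followed in 79 RNA-seq libraries from 4 mouse ESC lines, each at 7 conditions, which gave 28 groups. TET_KO lacks Tet1, Tet2 and Tet3, the enzymes that oxidise methylated cytosine, and TET_WT is its parental line. DNMT_KO lacks the DNA methyltransferases Dnmt1, Dnmt3a and Dnmt3b, and DNMT_WT is its own parental line. Each line was sampled as ESCs in 2i/Lif on day 0 (ESC D0), after 1 or 2 days of induction into EpiLCs, epiblast-like cells (EpiLC D1, EpiLC D2), and after 2, 4, 6 or 8 days as free-floating aggregates that differentiate, called embryoid bodies (EB D2, EB D4, EB D6, EB D8). There were 3 libraries in 23 groups and 2 in the other 5. Each genotype is 1 line, so a difference between a knockout and its parent cannot be told apart from a difference between those lines, and the labels do not say whether the replicates came from separate cultures. The p-values therefore cover only the spread among these libraries, which may be technical.

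The naive state is held by a network of transcription factors fed by LIF-STAT3 signalling and by the blocks on ERK and GSK3 signalling that 2i medium provides. Nanog encodes a homeodomain protein that sustains self-renewal and is lowered when cells leave the naive state, to return for a time in the posterior epiblast. Prdm14 encodes a zinc finger protein that represses Fgfr1, Fgfr2 and the de novo methyltransferase genes, is reported to act with TET proteins in demethylation, and is needed for the germ line. Tbx3 encodes a T-box factor that serves self-renewal downstream of LIF, and is used again in heart, limb and extraembryonic tissue.

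The 3 genes lie on different chromosomes of GRCm38, and all are protein coding. Nanog (ENSMUSG00000012396) spans chr6:122707489-122714633 on the plus strand. Prdm14 (ENSMUSG00000042414) spans chr1:13113457-13127163 on the minus strand. Tbx3 (ENSMUSG00000018604) spans chr5:119670669-119684724 on the plus strand. The RefSeq promoter table (GRCm38.p6) held an entry for 1 of them, Nanog. The 250 bases before its start, chr6:122707239-122707488 on the plus strand, are shown because they carry the OCT-SOX element through which Pou5f1 and Sox2 are known to act on the gene. Capitals mark the match to the composite motif CATTGTNATGCAAA, which lies on the minus strand, 75 to 62 bases before the start.
Nanog promoter: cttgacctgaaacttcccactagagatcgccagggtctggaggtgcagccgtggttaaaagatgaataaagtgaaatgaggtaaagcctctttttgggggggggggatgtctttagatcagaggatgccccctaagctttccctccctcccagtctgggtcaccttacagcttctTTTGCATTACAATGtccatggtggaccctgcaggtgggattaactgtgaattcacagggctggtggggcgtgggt
Both parts of the element, the octamer core ATGCAAA and the SOX core CATTGT, were searched on both strands and each occurred 1 time in this window, inside the composite. Among 32851 promoter windows of this length, 4.12% held the octamer core and 10.7% the SOX core, and 2 held the composite, both of them entries of Nanog. The window held 3 CpG dinucleotides, the sites on which DNMT and TET enzymes act, against a median of 6 over all windows, and 37.8% of windows held as few or fewer. A match of letters describes the sequence and does not show binding or methylation.

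The levels are RPKM, read counts scaled to exon length and library depth, which can be compared between genes. The depth recovered from the table was 7.76 to 13.9 M reads per library (median 11.2 M). Nanog had 83 to 13522 reads per library and Tbx3 39 to 3095. Prdm14 was the thinnest, with 0 to 1008 reads and fewer than 20 in 20 of the 79 libraries, so its low levels are the least certain. In the targeted lines Dnmt1 stood at 3.63 to 6.49 RPKM in DNMT_KO and 39.4 to 63.2 RPKM in DNMT_WT. Over all conditions the ranges overlapped for Dnmt3a (0.34 to 4.94 against 1.63 to 60.3) and Dnmt3b (3.03 to 58.6 against 24 to 382). The ranges of Tet1, Tet2 and Tet3 transcripts over all conditions also overlapped between TET_KO and TET_WT. Within a condition, by the call rule below, 1 of these 6 enzymes was lower in TET_KO and 3 in DNMT_KO. This held at ESC D0, EpiLC D1 and EpiLC D2. The label ESC D0 matched its markers: Esrrb, Klf4, Tfcp2l1 and Zfp42 were at 68.6 RPKM or more in every ESC D0 library, and Fgf5, a marker of EpiLCs, was at 0.0369 RPKM or less. The label EpiLC D2 was met unevenly. Its 12 formative and primed genes summed to 146 to 184 RPKM in TET_WT and 89.4 to 124 in TET_KO. The sum was 452 to 466 in DNMT_WT and 229 to 245 in DNMT_KO. The median of 16 naive genes was then at 31.2% of ESC D0 in TET_WT and 13.8% to 14.9% in the other lines. The part of this in the members' values was not tested. In 1 library, TET_WT EB D4 replicate 2, the ribosomal-like Gm42418 took 15.1% of the reads in listed genes, against at most 2.31% elsewhere.

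Prdm14 lies on chromosome 1, and the genes of that chromosome as a whole differed between libraries of the DNMT lines. The median log2 change of its 841 tested genes between TET_WT and DNMT_WT was -0.37 in ESCs and -0.28 and -0.30 in EpiLCs on days 1 and 2, but between -0.09 and 0.01 in embryoid bodies, while the median over all genes stayed between -0.09 and 0.02. From ESC D0 to embryoid bodies the chromosome 1 median fell in both DNMT lines, by log2 changes of -0.27 to -0.38 in DNMT_WT and -0.31 to -0.44 in DNMT_KO, and was -0.03 to 0.11 in the TET lines. Each level of Prdm14 in embryoid bodies given below as a percent of ESC D0, and each comparison with TET_WT at ESC D0 or in EpiLCs, holds this shift. Between each knockout and its own parent the chromosome 1 median was -0.04 to 0.19, near that of all genes, so those comparisons do not hold it. The part of the shift in the Prdm14 values was not tested. On chromosome 6, which holds Nanog, the median between TET_WT and DNMT_WT was 0.24 at EB D6 and 0.29 at EB D8. Between TET_KO and TET_WT at EB D8 it was -0.17, against 0.11 over all genes. Less these medians, Nanog at EB D8 was at 0.64 between the parents and 1.81 in TET_KO. For Tbx3 in TET_KO at EB D4, the chromosome 5 median was 0.25, and its change of 1.09 became 0.84 less that. The part of these shifts in the Nanog and Tbx3 values was not tested.

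At ESC D0 the genes were at or near their highest levels in all lines. Nanog stood at 474, 461 and 466 RPKM in TET_WT, at 523, 497 and 486 in TET_KO, at 436 and 471 in DNMT_WT, and at 501, 503 and 488 in DNMT_KO. Prdm14 was far less abundant per length: 23.3, 21.4 and 23.1 RPKM in TET_WT, 20.9, 19.9 and 18.5 in TET_KO, 26.5 and 24.8 in DNMT_WT, and 32.7, 30.1 and 30.7 in DNMT_KO. Tbx3 stood at 34.4, 35.4 and 36.7 RPKM in TET_WT, 38.5, 40.1 and 39.2 in TET_KO, 27.3 and 29.8 in DNMT_WT, and 30.3, 31 and 31.8 in DNMT_KO. Libraries of each knockout and its parent did not overlap for any of the 3 genes, but the differences were small, and none was called. The share of all genes without overlap was not counted, here or at later conditions. Lack of overlap alone therefore does not set these genes apart. Calls required an adjusted p below 0.05 (limma, Benjamini-Hochberg over the 15267 genes) together with a log2 change of 1 or more, up or down. All log2 changes are on the log2(RPKM + 0.5) scale, which understates the change of low genes. The largest of the 6 was Prdm14 in DNMT_KO, at a log2 change of 0.27 ± 0.061 (SE, adjusted p = 0.012). Over all genes, 6.78% were called between TET_KO and TET_WT and 1.03% between DNMT_KO and DNMT_WT at ESC D0. The difference between the knockout effects, called for 7.95% of genes, was called for none of the 3, with Prdm14 at -0.46 ± 0.082.

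**Figure D1:**
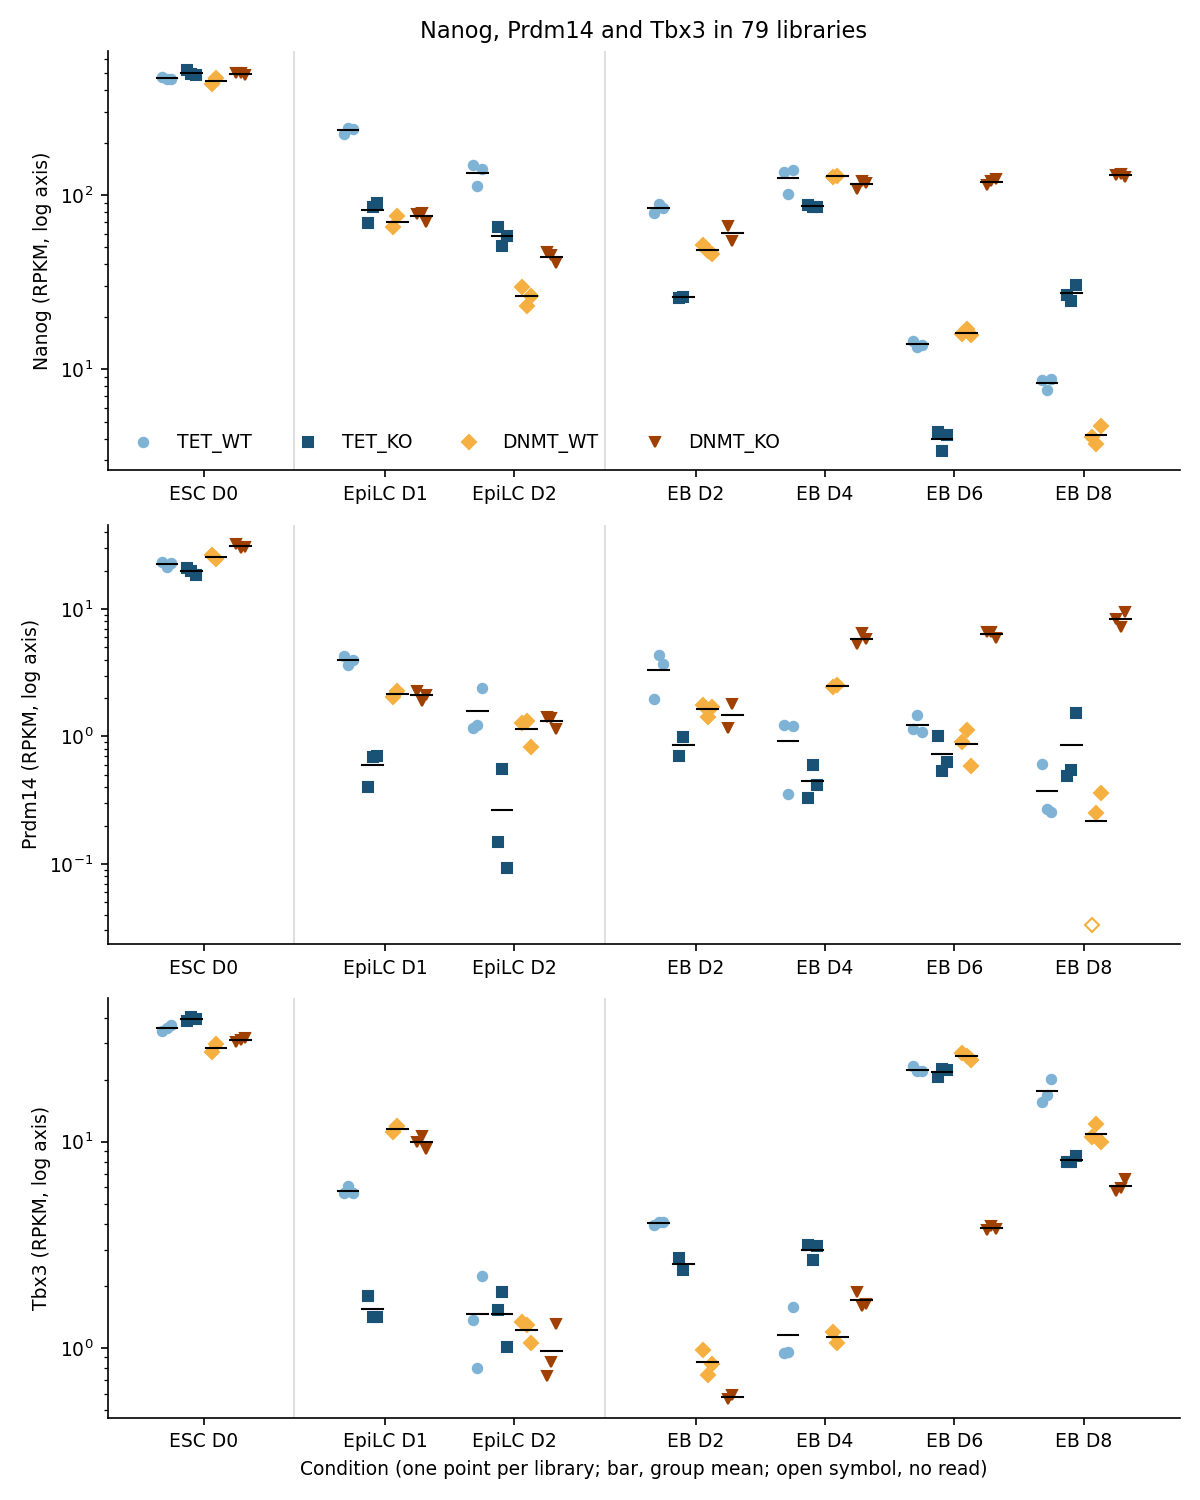
RPKM (log axis) of Nanog, Prdm14 and Tbx3 in each of the 79 libraries, by condition, with 1 symbol per line and a bar at each group mean; the open symbol is the library without a Prdm14 read. Nanog and Prdm14 in DNMT_KO stay above the other lines at EB D6 and EB D8 (115 to 132 RPKM for Nanog), while Tbx3 returns at EB D6 to 20.5 to 27 RPKM in the 3 other lines and to 3.71 to 3.92 RPKM in DNMT_KO.

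Within 1 day of conversion to EpiLCs, all 3 genes were lower in every line, to different extents. Nanog in TET_WT went to 223, 242 and 240 RPKM, 50.4% of the ESC D0 mean, and the log2 change of -0.99 ± 0.076 (adjusted p = 2e-09) lay just short of the size for a call, which it reached without TET_WT EpiLC D1 replicate 2 (-1.01) or 3 (-1.0) and with quantile normalization (-1.25). In the 3 other lines Nanog fell to between 15.2% and 16.3% of ESC D0: 69.1, 85.7 and 90 RPKM in TET_KO, 65.5 and 75.3 in DNMT_WT, and 77.9, 79.3 and 69.7 in DNMT_KO. Only TET_WT stood apart, with its lowest library well above the highest of the others. Prdm14 fell further, to 17.6% of ESC D0 in TET_WT (4.25, 3.66 and 3.98 RPKM), 8.42% in DNMT_WT (2.04 and 2.28), 6.75% in DNMT_KO (2.28, 1.92 and 2.11) and 3.02% in TET_KO (0.402, 0.691 and 0.7). Tbx3 fell least in the DNMT lines, to 11.1 and 12 RPKM in DNMT_WT and 9.94, 10.7 and 9.23 in DNMT_KO, and most in TET_KO, to 1.78, 1.41 and 1.42 RPKM, with TET_WT between them at 5.62, 6.11 and 5.66. The calls from ESC D0 to EpiLC D1 covered 12.9% of genes in TET_WT, 22% in TET_KO, 12.2% in DNMT_WT and 11.5% in DNMT_KO. In bulk RNA, fewer cells that express a gene and less RNA per cell cannot be told apart.

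TET_KO cells thus had less of all 3 regulators at EpiLC D1 than their parent, and no library overlapped. The log2 change between TET_KO and TET_WT was -1.53 ± 0.097 for Nanog (adjusted p = 1.2e-06), -2.03 ± 0.123 for Prdm14 (adjusted p = 8.4e-07) and -1.63 ± 0.088 for Tbx3 (adjusted p = 4.5e-07), where 6.62% of genes were called. The response from ESC D0 itself differed between the lines, by -1.63 ± 0.108 for Nanog, -1.85 ± 0.132 for Prdm14 and -1.78 ± 0.095 for Tbx3 (adjusted p of 3.2e-08 or less), a test that called 4.05% of genes. The same test between DNMT_KO and DNMT_WT called none of the 3 at EpiLC D1, EpiLC D2, EB D2 or EB D4, where it called 0.504%, 1.59%, 2.4% and 7.7% of genes, and Prdm14 came nearest to the size for a call, at 0.81 ± 0.279 at EB D4 (adjusted p = 0.046). DNMT_KO against DNMT_WT gave 0.10 ± 0.109, -0.03 ± 0.137 and -0.21 ± 0.099 in the same order, none of them called, where 0.95% of genes were. The TET_KO effect differed from the DNMT_KO effect for all 3 genes (-1.63, -2.0 and -1.43, adjusted p of 3.6e-05 or less), as it did for 8.9% of genes. The other parental line, DNMT_WT, overlapped TET_KO in Nanog but stood above it in Prdm14 and Tbx3.

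Other genes of the naive network did not all follow. Of 16 naive genes, 4 were lower in TET_KO at EpiLC D1 and 2 were higher, with a list median of -0.88 against -0.02 over all genes tested. The largest were Klf2 (-2.16 ± 0.11) and Nr5a2 (-1.87 ± 0.11), both naive transcription factors, Dppa5a (1.33 ± 0.11) and Tdh (-1.22 ± 0.08), a threonine dehydrogenase on which ESCs depend. At EpiLC D2 the naive list had 7 lower and 2 higher members, led by Tdh (-2.76 ± 0.19), Fbxo15 (-2.28 ± 0.09), Nr0b1 (-1.95 ± 0.10) and Zfp42 (-1.56 ± 0.20). Of 12 formative and primed genes, which mark the state EpiLCs enter, 4 were lower at EpiLC D2 and none was higher: Fgf5 (-1.88 ± 0.14), Foxd3 (-1.65 ± 0.16), Otx2 (-1.29 ± 0.13) and Dnmt3a (-1.02 ± 0.13).

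At EpiLC D2 the 3 genes had parted. Nanog was at 149, 112 and 142 RPKM in TET_WT, 65.2, 50.7 and 58.4 in TET_KO, 29.7, 23.1 and 26.4 in DNMT_WT, and 47.2, 45 and 40.7 in DNMT_KO. The knockout effect was -1.20 ± 0.130 in TET_KO (adjusted p = 2.1e-05), called under every setting tried but quantile normalization, where it was -0.86. In DNMT_KO it was 0.74 ± 0.130 (adjusted p = 0.0043), without overlap but under the size for a call. Prdm14 stood at 0.149, 0.556 and 0.0936 RPKM in TET_KO, from 2 to 15 reads a library, against 1.16, 1.23 and 2.4 RPKM in TET_WT (-1.45 ± 0.250, adjusted p = 0.00062). Tbx3 had reached 0.73 to 2.24 RPKM in all lines, with overlapping libraries and effects of 0.04 ± 0.253 in TET_KO and -0.25 ± 0.253 in DNMT_KO. Here 7.9% of genes were called in TET_KO and 1.59% in DNMT_KO. The difference between the knockout effects was called for Nanog (-1.94) and Prdm14 (-1.61), and for 10.6% of genes. The response from ESC D0 was lower in TET_KO than in TET_WT for Nanog (-1.30 ± 0.143, or -0.92 and not called with quantile normalization) and Prdm14 (-1.26 ± 0.273, or -0.84 and not called with a pseudocount of 1 RPKM), where 6.45% of genes were called.

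**Figure D2:**
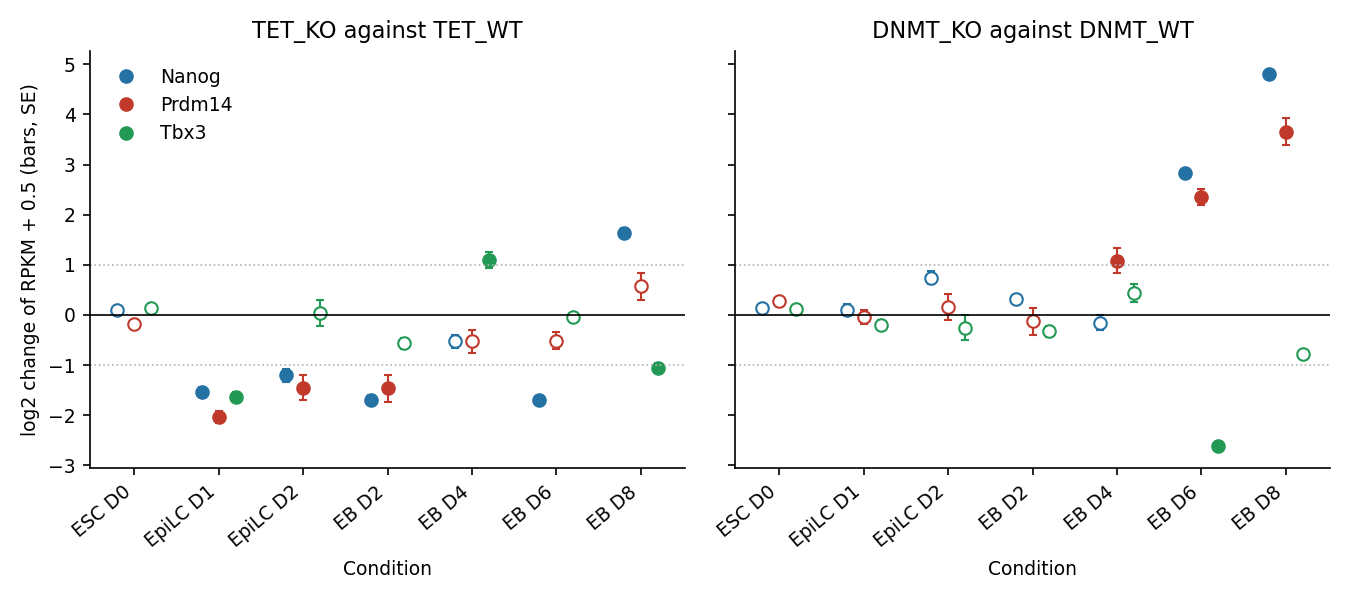
Log2 change (RPKM + 0.5) of Nanog, Prdm14 and Tbx3 between each knockout and its parental line, by condition; bars are standard errors, hidden where smaller than the symbol, filled symbols are called and dotted lines mark the size for a call. Effects in TET_KO lie between -2.03 and 1.64, and those in DNMT_KO are largest at EB D6 and EB D8, where Nanog reaches 4.8 and Tbx3 is lower.

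In embryoid bodies on day 2 all 3 genes were again low, and TET_KO had the least Nanog of the 4 lines. Nanog was at 79.3, 89 and 84.7 RPKM in TET_WT, 25.8 and 25.9 in TET_KO, 51.5, 47.8 and 46 in DNMT_WT, and 66.3 and 54.8 in DNMT_KO. Relative to its parent TET_KO was lower by a log2 change of -1.69 ± 0.090 (adjusted p = 3.3e-06), and DNMT_KO differed by 0.31 ± 0.090 (adjusted p = 0.067). Prdm14 was at 0.703 and 0.997 RPKM in TET_KO and at 1.96, 4.36 and 3.72 in TET_WT (-1.46 ± 0.271, adjusted p = 0.0027), and at 1.42 to 1.78 RPKM in DNMT_WT and 1.16 and 1.79 in DNMT_KO, which overlapped. Tbx3 was highest in TET_WT, at 3.92, 4.08 and 4.06 RPKM, with 2.72 and 2.38 in TET_KO, and lower still in DNMT_WT (0.981, 0.738 and 0.832) and DNMT_KO (0.567 and 0.589). The calls at EB D2 covered 7.41% of genes in TET_KO and 1.14% in DNMT_KO, and the latter count was 174 genes, or 372 without DNMT_KO replicate 3. Of the naive list 9 of 16 members were lower in TET_KO and 1 was higher (median -1.11, all genes 0.08), led by Gbx2 (-2.18 ± 0.12), Nr0b1 (-2.01 ± 0.12), Tdh (-1.85 ± 0.08) and Nr5a2 (-1.77 ± 0.12).

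From ESC D0 to EB D2 every member fell in every line, by log2 changes of -2.46 to -4.87, where 15.2% of genes were called in TET_WT, 15.4% in TET_KO, 19.7% in DNMT_WT and 20.3% in DNMT_KO. The response was lower in TET_KO than in TET_WT for Nanog (-1.79 ± 0.093) and Prdm14 (-1.27 ± 0.267), where 5.2% of genes were called, and was -0.71 ± 0.098 for Tbx3, which was not. The difference between the knockout effects at EB D2 was called for Nanog (-2.0 ± 0.127) and Prdm14 (-1.34 ± 0.383, adjusted p = 0.029) among 9.88% of genes. That of Prdm14 lost its call without any of 7 libraries of the 10 (adjusted p up to 0.11): DNMT_WT replicates 2 and 3, DNMT_KO replicate 3, TET_WT replicates 2 and 3, and TET_KO replicates 1 and 2, with values of -1.11 to -1.49.

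Nanog stood higher at EB D4 than at EB D2 in each line. It reached 136, 102 and 139 RPKM in TET_WT, 87.7, 85 and 85.8 in TET_KO, 127 and 129 in DNMT_WT, and 108, 120 and 117 in DNMT_KO, and no line's EB D4 libraries overlapped its EB D2 libraries. The rise was called in TET_KO (1.72 ± 0.122) and DNMT_WT (1.39 ± 0.122), and was 0.56 ± 0.109 in TET_WT and 0.93 ± 0.122 in DNMT_KO. Prdm14 rose in DNMT_KO, from 1.16 and 1.79 to 5.28, 6.47 and 5.84 RPKM (1.70 ± 0.275), and fell in TET_WT to 1.22, 0.352 and 1.2 RPKM (-1.45 ± 0.246). Tbx3 fell in TET_WT (-1.47 ± 0.135). In DNMT_KO it rose by 1.03 ± 0.151, to 1.59 to 1.87 RPKM, a call that ended without DNMT_KO EB D4 replicate 1 (0.97), with a pseudocount of 1 RPKM (0.77), with libraries centred on their medians (0.89) and with quantile normalization (0.95). These steps called 10.1% of genes in TET_WT, 11.5% in TET_KO, 6.79% in DNMT_WT and 4% in DNMT_KO.

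At EB D4, 1 of the 3 genes was called against the parent in each knockout, Prdm14 in DNMT_KO and Tbx3 in TET_KO. Nanog was lower in TET_KO without overlap, at -0.53 ± 0.135 (adjusted p = 0.0048), and -0.15 ± 0.151 in DNMT_KO, neither called. Prdm14 was higher in DNMT_KO than in DNMT_WT, which stood at 2.45 and 2.53 RPKM (1.09 ± 0.247, adjusted p = 0.0049), a call that ended with a pseudocount of 1 RPKM (0.97) and without the filter (adjusted p = 0.063). In TET_KO it stood at 0.326, 0.594 and 0.417 RPKM, from 9 to 17 reads a library, and overlapped TET_WT (-0.53 ± 0.221, adjusted p = 0.067). The difference between the knockout effects was called for Prdm14 (-1.61 ± 0.331, adjusted p = 0.0014) among 16.1% of genes, and was -0.38 ± 0.202 for Nanog and 0.65 ± 0.238 for Tbx3. Tbx3 was higher in TET_KO, at 3.16, 2.67 and 3.14 RPKM against 0.944, 0.953 and 1.58 (1.09 ± 0.159, adjusted p = 3.3e-05), and that call ended with a pseudocount of 1 RPKM (0.90), with libraries centred on their medians (0.79) and with quantile normalization (0.77). The response of Tbx3 from ESC D0 to EB D4 was 0.95 ± 0.157 higher in TET_KO than in TET_WT, under the size for a call, which it reached without TET_WT EB D4 replicate 3 (1.12) or TET_KO EB D4 replicate 2 (1.01) and with a pseudocount of 0.1 RPKM (1.181), and 9.98% of genes were called. Over all genes 9.47% were called in TET_KO, whose median change was 0.19, and 5.82% in DNMT_KO. At this condition 7 of 12 mesoderm and heart genes were higher in TET_KO, led by Mixl1 (6.72 ± 0.26), T (5.65 ± 0.19), Mesp1 (4.17 ± 0.14) and Bmp2 (1.76 ± 0.19). In DNMT_KO 15 of 16 naive genes were already higher (median 1.45, all genes 0.00). Its mesoderm and heart list was mixed, with 2 higher and 2 lower of 12 (median 0.21): Mixl1 (-4.51 ± 0.29) and T (-4.11 ± 0.21), regulators of the primitive streak, Bmp4 (1.72 ± 0.21) and Isl1 (1.05 ± 0.19). Of 8 blood and endothelium genes 7 were higher (median 2.17), with a summed level of 101 to 118 RPKM against 9.97 to 12.2 in DNMT_WT, and of 12 primitive endoderm genes 7 were higher and 1 lower (median 1.19). Their part in the members' values was not tested.

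Between EB D4 and EB D6 Nanog fell and Tbx3 rose in 3 lines, and in DNMT_KO neither change was called. Nanog fell to 14.6, 13.5 and 13.8 RPKM in TET_WT (-3.11 ± 0.099), to 4.36, 3.39 and 4.21 in TET_KO (-4.28 ± 0.099), and to 16, 16.9 and 15.8 in DNMT_WT (-2.94 ± 0.111). In DNMT_KO it stood at 115, 120 and 123 RPKM, overlapping EB D4 (0.05 ± 0.099, adjusted p = 0.85). Tbx3 rose to 23.2, 22 and 21.9 RPKM in TET_WT (3.81 ± 0.111), 20.5, 22.4 and 22.3 in TET_KO (2.68 ± 0.111), and 27, 26.1 and 24.9 in DNMT_WT (4.03 ± 0.124), which is 91.1% of the DNMT_WT level at ESC D0. In DNMT_KO it reached 3.71, 3.92 and 3.79 RPKM (0.97 ± 0.111, just under the size for a call, which it reached without DNMT_KO EB D4 replicate 1, at 1.03). Prdm14 fell in DNMT_WT, to 0.905, 1.12 and 0.589 RPKM (-1.15 ± 0.231), a call that ended without DNMT_WT EB D6 replicate 3 (-0.99) or with a pseudocount of 1 RPKM (-0.91). The step called 14.5% of genes in TET_WT, 9.22% in TET_KO and 12.8% in DNMT_WT, but 1.34% in DNMT_KO, and 0 of 16 naive genes were called in DNMT_KO in this step, while 11, 12 and 15 fell in TET_WT, TET_KO and DNMT_WT. Of 12 mesoderm and heart genes, 7 rose in DNMT_KO in the same step, led by Mixl1 (3.55 ± 0.20), Mesp1 (2.24 ± 0.19), T (2.19 ± 0.16) and Hand1 (1.82 ± 0.16).

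At EB D6 the knockout effects of DNMT_KO were of opposite sign in Tbx3 and in the other genes. Nanog was higher than in DNMT_WT by 2.84 ± 0.073 (adjusted p = 1.1e-11), a ratio of mean RPKM of 7.34. Prdm14 stood at 6.58, 6.65 and 5.98 RPKM and was higher by 2.35 ± 0.165 (adjusted p = 7.5e-08), a ratio of 7.36. Tbx3 was lower by -2.62 ± 0.049 (adjusted p = 8.2e-13), at 0.147 of the DNMT_WT mean. All 3 were called where 17.9% of genes were. The response from ESC D0 differed between DNMT_KO and DNMT_WT in the same directions (2.70 ± 0.089 for Nanog, 2.08 ± 0.191 for Prdm14 and -2.74 ± 0.067 for Tbx3), as it did for 19.9% of genes. TET_KO showed another pattern, with Nanog lower than in TET_WT (-1.70 ± 0.073, adjusted p = 9.8e-09), Prdm14 at -0.51 ± 0.165 and Tbx3 at -0.04 ± 0.049 with overlapping libraries, where 5.02% of genes were called. The response of Nanog from ESC D0 was lower in TET_KO than in TET_WT by a log2 difference of -1.80 ± 0.084, among 8.84% of genes. The difference between the knockout effects was -4.53 ± 0.103 for Nanog, -2.86 ± 0.233 for Prdm14 and 2.58 ± 0.070 for Tbx3, called for all 3 and for 20.5% of genes.

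By EB D8 the 4 lines ranked differently again. Nanog was at 8.63, 7.65 and 8.82 RPKM in TET_WT and at 4.08, 3.73 and 4.71 in DNMT_WT, which is 1.79% and 0.92% of their ESC D0 means. In TET_KO it was back up at 26.6, 24.8 and 30.5 RPKM, a rise from EB D6 of 2.63 ± 0.083 (adjusted p = 9.8e-16). In DNMT_KO it stood at 130, 132 and 127 RPKM, 26.1% of ESC D0. Nanog was thus higher than in the parent in both knockouts at this time, by 1.64 ± 0.086 in TET_KO (adjusted p = 8.8e-09) and by 4.8 ± 0.086 in DNMT_KO (adjusted p = 7.7e-13, a ratio of 31.1). In TET_KO this reversed the sign seen at EpiLC D1, EpiLC D2, EB D2 and EB D6. The calls covered 9.98% of genes in TET_KO, whose median change was 0.11, and 18.9% in DNMT_KO.

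Prdm14 at EB D8 was at 8.34, 7.27 and 9.53 RPKM in DNMT_KO, 26.9% of its ESC D0 mean, a log2 change of -1.84 where the median gene of chromosome 1 had changed by -0.31. DNMT_WT had 0, 9 and 11 reads, listed as 0.0331, 0.253 and 0.36 RPKM, where 3 reads, the limit that a count of 0 allows, would be 0.11 RPKM. The difference was 3.65 ± 0.267 (adjusted p = 6.8e-08). In TET_WT it was at 0.603, 0.269 and 0.254 RPKM and in TET_KO at 0.491, 0.544 and 1.54, which overlapped (0.57 ± 0.267, adjusted p = 0.084). The libraries of DNMT_KO lay above every library of the other lines for both Nanog and Prdm14.

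Tbx3 at EB D8 stood at 15.5, 16.9 and 20.2 RPKM in TET_WT, 7.97, 7.96 and 8.56 in TET_KO, 10.6, 12.2 and 10 in DNMT_WT, and 5.78, 5.97 and 6.63 in DNMT_KO. Both knockouts were below their parents without overlap. In TET_KO the effect was -1.05 ± 0.096 (adjusted p = 1.3e-06), and it lost the call without TET_WT replicate 3, at -0.95. In DNMT_KO it was -0.78 ± 0.096 (adjusted p = 9.1e-06), under the size for a call. The response from ESC D0 differed between DNMT_KO and DNMT_WT by 4.67 ± 0.104 for Nanog and 3.38 ± 0.312 for Prdm14, which were called among 20.5% of genes, and by -0.90 ± 0.117 for Tbx3, which was not. Between TET_KO and TET_WT it differed by 1.54 ± 0.098 for Nanog and -1.19 ± 0.110 for Tbx3, among 13.2% of genes called. The difference between the TET_KO and DNMT_KO effects was called for Nanog (-3.16 ± 0.122) and Prdm14 (-3.08 ± 0.377) among 20.7% of genes, and was -0.27 ± 0.135 for Tbx3.

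From EB D6 to EB D8 DNMT_KO had no called change in the 3 genes, at 0.12 ± 0.083 for Nanog, 0.36 ± 0.235 for Prdm14 and 0.62 ± 0.078 for Tbx3. In DNMT_WT Nanog (-1.85 ± 0.083) and Tbx3 (-1.22 ± 0.078) fell, and in TET_KO Tbx3 fell (-1.36 ± 0.078). Prdm14 in TET_WT was at the edge of a call (-1.0 ± 0.235), which ended without TET_WT EB D6 replicate 2 or EB D8 replicates 2 or 3 (-0.91 to -0.92) or with a pseudocount of 1 RPKM (-0.70). The step called 8.28% of genes in TET_WT, 5.9% in TET_KO, 7.07% in DNMT_WT and 2.16% in DNMT_KO. From ESC D0 to EB D8 all 3 genes fell in each line (32.7% of genes called in TET_WT, 28.1% in TET_KO, 37.7% in DNMT_WT and 23.8% in DNMT_KO). The smallest of these falls, Tbx3 in TET_WT (-1.01 ± 0.078), lost its call without ESC D0 replicate 3, EB D8 replicate 1 or EB D8 replicate 2 (-0.92 to -0.98), with a pseudocount of 1 RPKM (-0.99) and with quantile normalization (-0.95).

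**Figure D3:**
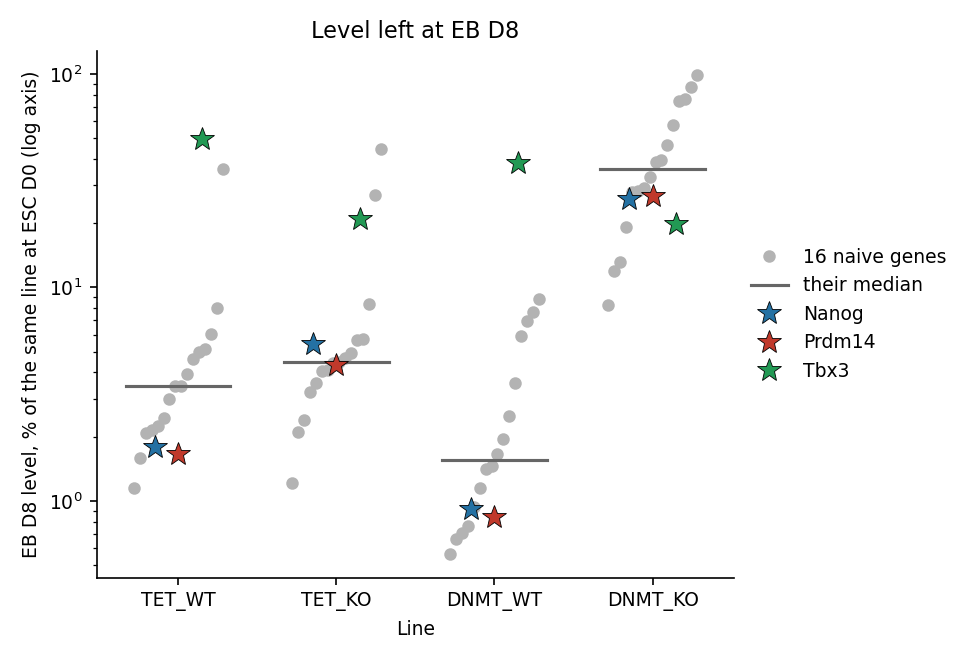
Mean RPKM at EB D8 as a percent of the same line's mean at ESC D0 (log axis), for Nanog, Prdm14 and Tbx3 (stars) and for 16 genes of the naive network (grey points, ordered by value, with their median as a line). In DNMT_KO Nanog and Prdm14 lie near 26% and the naive median at 35.7%, while in the other lines the naive median is 1.56% to 4.46% and Tbx3 lies above Nanog and Prdm14.

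At EB D6 and EB D8 Nanog and Prdm14 in DNMT_KO were higher together with most of the naive network. At EB D4 Nanog was not (-0.15), although 15 of 16 naive genes were already higher. At EB D6, 15 of 16 naive genes were higher in DNMT_KO than in DNMT_WT (median 4.23, all genes 0.04), and at EB D8, 14 of 16 (median 4.09, all genes 0.01). At EB D8 the largest were Dppa5a (5.74 ± 0.13), Zfp42 (5.52 ± 0.21), Esrrb (5.31 ± 0.11), an orphan nuclear receptor of the naive network, and Nr0b1 (5.21 ± 0.17). The median naive gene retained 35.7% of its ESC D0 level in DNMT_KO, against 1.56% in DNMT_WT, 3.45% in TET_WT and 4.46% in TET_KO. General pluripotency genes, which stay on through the epiblast, were higher in 8 of 12 cases at both times, with 1 lower at EB D6, led at EB D8 by Dppa2 (5.51 ± 0.11), Dppa4 (4.94 ± 0.12), Utf1 (4.65 ± 0.13) and L1td1 (4.62 ± 0.09). Primordial germ cell genes, the programme in which Prdm14 acts in the embryo, were higher in 7 of 11 tested members at EB D6, where 2 were lower, and in 9 at EB D8, where 1 was lower, led at EB D8 by Dazl (5.13 ± 0.09), Dppa3 (5.09 ± 0.14), Ddx4 (3.29 ± 0.17) and Tfap2c (2.73 ± 0.13), of which Dppa3 is also on the naive list. In DNMT_KO the 12 genes of this list summed to 403 to 411 RPKM at EB D8 and already to 375 to 381 at ESC D0. In DNMT_WT the sum was 76.8 to 91 and 291 to 300 RPKM. At ESC D0, EpiLC D1 and EpiLC D2, where Prdm14 was not called, 1, 3 and 2 members were already higher in DNMT_KO.

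In TET_KO at EB D8 Nanog was higher together with formative and primed genes. Of 12 such genes 9 were higher and none lower (median 1.89, all genes 0.11), led by Fgf5 (4.07 ± 0.14), Zic2 (3.06 ± 0.09), Pou3f1 (2.64 ± 0.09) and Otx2 (2.63 ± 0.14), and of 12 general pluripotency genes 6 were higher, led by Tdgf1 (3.51 ± 0.11), Utf1 (2.70 ± 0.13), Pou5f1 (2.37 ± 0.09) and Dppa4 (2.06 ± 0.12). The naive list was mixed, with 4 higher and 2 lower of 16 (median 0.71), among them Dppa5a (1.59 ± 0.13), Klf2 (1.5 ± 0.11), Klf4 (-1.36 ± 0.10) and Esrrb (1.31 ± 0.11). In DNMT_KO at the same time 7 of the 12 formative and primed genes were higher and 3 lower (median 1.66, all genes 0.01), led by Foxd3 (3.94 ± 0.20), Pou3f1 (2.86 ± 0.09), Sox3 (2.63 ± 0.17) and Zic2 (2.42 ± 0.09). The summed level of the 12 was not raised there, at 147.2 to 157.1 RPKM in DNMT_KO and 157.4 to 158.9 in DNMT_WT. It was 279 to 317 in TET_KO and 121 to 124 in TET_WT. Dnmt3a, which is targeted in DNMT_KO, is on this list. Whether these lists differ between the knockouts was not tested.

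Markers of other cell types moved in the same libraries. The summed level of 8 blood and endothelium genes at EB D8 was 7567 to 8233 RPKM in TET_WT and 43.2 to 58.5 in TET_KO, and 4091 to 4136 in DNMT_WT and 151 to 164 in DNMT_KO. The sum of 12 mesoderm and heart genes was 528 to 564 RPKM in TET_WT, 204 to 209 in TET_KO, 455 to 492 in DNMT_WT and 102 to 108 in DNMT_KO. That of 12 primitive endoderm genes was 557 to 588, 135 to 149, 390 to 403 and 84.7 to 90.3 RPKM in the same order. That of 8 trophoblast genes was 989.5 to 1098, 467 to 524, 1047 to 1120 and 322 to 347 RPKM, although Elf5, a defining trophoblast gene, was at 0.307 RPKM or less in each of these libraries. Neuroectoderm went the other way, its 6 genes summing to 3.4 to 4.01 RPKM in TET_WT, 12.4 to 14.3 in TET_KO, 7.79 to 8.79 in DNMT_WT and 32.2 to 36.7 in DNMT_KO. This sum was below ESC D0 in every line, where it was 34.2 to 37.6, 20.5 to 24.8, 103 to 115 and 111 to 120 RPKM. The values at EB D8 therefore do not show a gain of neuroectoderm. Of the 4 tested neuroectoderm genes 1 was higher in TET_KO at EB D8, the intermediate filament gene Nes (2.26 ± 0.09), and 3 in DNMT_KO, Tubb3 (3.14 ± 0.15), Sox1 (2.42 ± 0.12) and Pax6 (1.28 ± 0.10). The sum of 16 naive genes, which leaves out the 3 members, was 106 to 109 RPKM in TET_WT, 205 to 275 in TET_KO, 61.4 to 72 in DNMT_WT and 1683 to 1769 in DNMT_KO. The share of each cell type in these bulk levels was not tested.

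**Figure D4:**
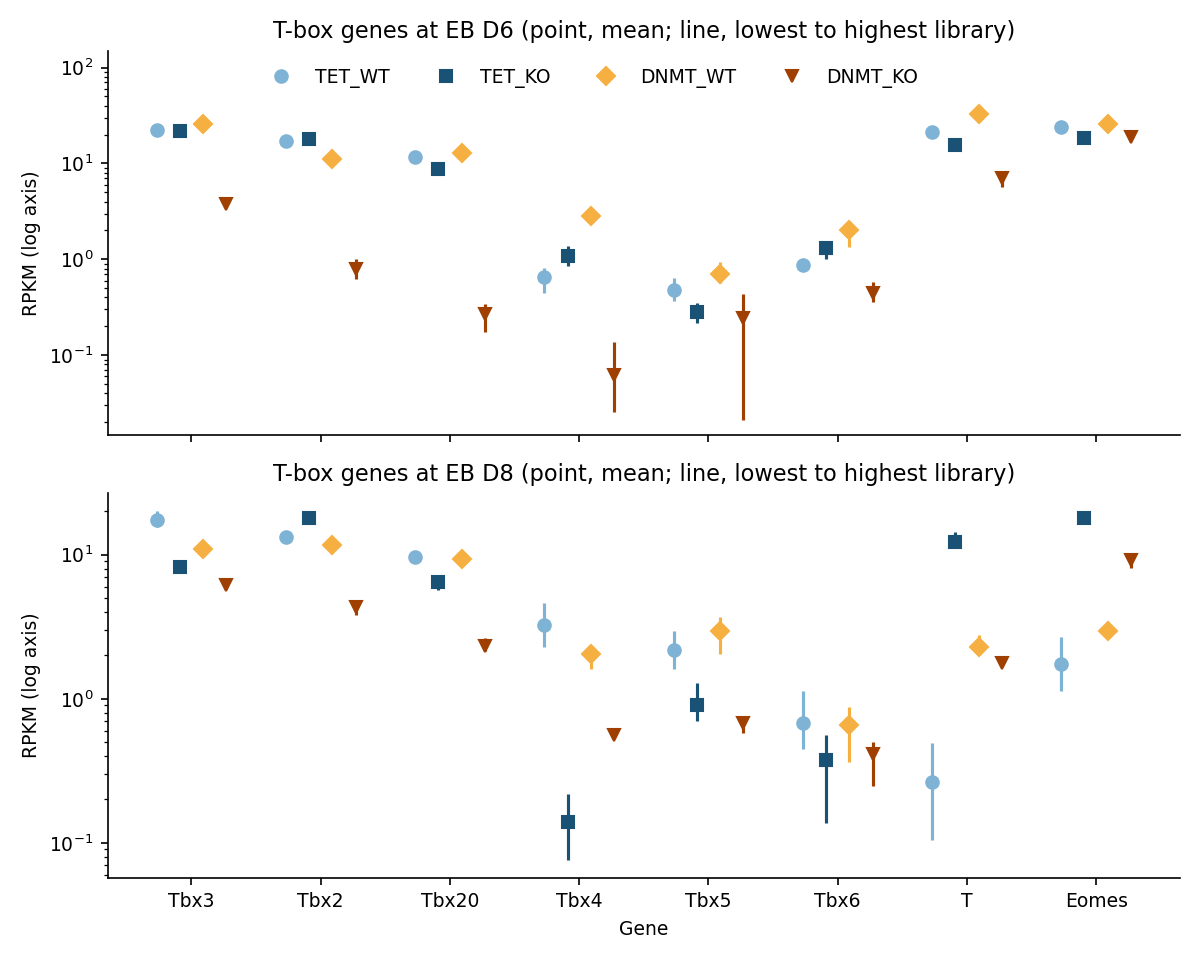
Mean RPKM (log axis) of Tbx3 and 7 other T-box genes at EB D6 and EB D8 in the 4 lines, with a line from the lowest to the highest library. At EB D6 Tbx3, Tbx2 and Tbx20 in DNMT_KO lie below the other lines, while Eomes is at 17.4 to 20.4 RPKM there, and at EB D8 T and Eomes are highest in TET_KO.

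In DNMT_KO at EB D6, where Tbx3 was lower, 5 of the 12 other T-box genes tested were lower, 1 was higher and 6 were not called (median -0.57). The higher one was Tbx21 (1.21 ± 0.13), and those that changed most were Tbx20 (-4.11 ± 0.08), a cardiac factor, Tbx2 (-3.16 ± 0.10), the closest relative of Tbx3, Tbx4 (-2.55 ± 0.15) and T (-2.15 ± 0.10), the brachyury gene of the primitive streak. Tbx2 was at 0.617 to 1 RPKM in DNMT_KO and 10.5 to 12 in DNMT_WT. Of 12 mesoderm and heart genes 11 were lower and none was higher (median -2.38), led by Hand1 (-6.47 ± 0.05), Hand2 (-4.98 ± 0.13), Tbx20 and Mesp1 (-3.98 ± 0.24). At EB D8, 4 T-box genes were lower and 1 was higher, with Tbx20 at -1.80 ± 0.08, Tbx5 at -1.52 ± 0.22, Eomes at 1.47 ± 0.19 and Tbx2 at -1.33 ± 0.08. In TET_KO at EB D8, where Tbx3 was lower, Tbx2 stood at 16.6 to 19.3 RPKM against 12.7 to 14 in TET_WT, and T (4.08 ± 0.17) and Eomes (3.11 ± 0.19) were higher and Tbx4 (-2.52 ± 0.19) lower.

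Lists of pathway genes around the 3 regulators were read against the share of all genes called. Of 12 LIF and STAT3 pathway genes, which act upstream of Tbx3, 1 was called in DNMT_KO at EpiLC D2, the kinase gene Jak2 (1.28 ± 0.20). The adaptor gene Gab1 was the 1 called in DNMT_KO at EB D4, EB D6 and EB D8, where it was higher (1.43 ± 0.05 at EB D6), and the 1 called in TET_KO at EpiLC D1 and EB D2, where it was lower (-1.35 ± 0.07 at EpiLC D1). One of 12 lies below the 17.9% and 18.9% of all genes called in DNMT_KO at EB D6 and EB D8. In TET_KO at EB D4, where Tbx3 was higher, 3 were higher (9.47% of all genes were called), Jak2 (1.27 ± 0.15), the feedback inhibitor gene Socs3 (1.20 ± 0.18) and the receptor gene Il6st (1.20 ± 0.14). In DNMT_KO at EB D6, where 17.9% of all genes were called, 2 of 13 FGF and ERK feedback genes were higher and 3 lower, among them Fgfr3 (-2.59 ± 0.10), Etv5 (2.19 ± 0.03), Fgfr2 (-1.91 ± 0.07) and Spry4 (1.57 ± 0.08). Of 12 Wnt and TCF genes, 1 was higher and 2 were lower in TET_KO at EpiLC D1, where 6.62% of all genes were called, namely Lef1 (1.94 ± 0.14), Notum (-2.85 ± 0.06) and Tcf7l1 (-1.10 ± 0.13), the last a repressor of Nanog. In DNMT_KO at EB D6, 1 was higher and 5 were lower (median -0.68), with Nkd1 at -2.47 ± 0.08, Notum at 2.14 ± 0.22, Lgr5 at -1.80 ± 0.10 and Tcf7l2 at -1.55 ± 0.11. In the other knockout comparisons at most 4 of the 12 were called. Of 14 partners and reported targets of Prdm14, 4 were higher and 4 lower in DNMT_KO at EB D6, led by Dnmt3l (5.31 ± 0.23), Fgfr2, Dnmt3b (-1.85 ± 0.05) and Dnmt3a (-1.71 ± 0.06), of which the last pair are targeted in this line. Among 9 tested PRDM genes other than Prdm14, 1 was higher and 1 lower at EB D6, Prdm1 (1.15 ± 0.12), which works with Prdm14 in germ cells, and Prdm6 (-4.01 ± 0.09), which is close to the share of all genes.

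The parental lines differed from each other in some of these genes with no knockout involved. Nanog was higher in TET_WT than in DNMT_WT at EpiLC D1 (1.74 ± 0.109) and EpiLC D2 (2.32 ± 0.130), where 11.7% and 22.8% of genes were called. Tbx3 was higher in TET_WT at EB D2 (1.75 ± 0.099), where 5.08% were called. Prdm14 was lower in TET_WT at EB D4 (-1.14 ± 0.247, adjusted p = 0.0078), where 2.29% were called. That call ended without TET_WT replicate 2 (-0.81), the library with the high Gm42418 share, without DNMT_WT replicate 1 or 2 (adjusted p up to 0.082), with a pseudocount of 1 RPKM (-0.90) and without the filter (adjusted p = 0.1). No member was called between the parents at ESC D0, EB D6 or EB D8, where 8.24%, 2% and 2.44% of genes were. At EpiLC D1 Tbx3 was -0.94 ± 0.099 in TET_WT relative to DNMT_WT, without overlap, and Prdm14 was 0.75 ± 0.137, or 1.02 less the chromosome 1 median of -0.28.

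The routes were compared on the same day, EpiLC D2 against EB D2. The median of chromosome 1 genes was 0.31 in DNMT_WT and 0.37 in DNMT_KO in this comparison, where Prdm14 was at -0.39 and -0.10. Nanog was higher in EpiLCs in TET_KO (1.15 ± 0.129), and 0.66 ± 0.116 in TET_WT, while in the DNMT lines it stood lower in EpiLCs, at -0.87 ± 0.116 in DNMT_WT and -0.44 ± 0.129 in DNMT_KO. Tbx3 was lower in EpiLCs in TET_WT (-1.27 ± 0.209, and -0.999 without EpiLC D2 replicate 2, which is under the size for a call). No other member was called, where 20% of genes were in TET_WT, 22.6% in TET_KO, 6.26% in DNMT_WT and 6.86% in DNMT_KO.

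Over all 28 groups the genes were ordered as follows. Nanog spanned means of 502 RPKM (TET_KO ESC D0) to 3.98 RPKM (TET_KO EB D6), Prdm14 31.1 RPKM (DNMT_KO ESC D0) to 0.215 RPKM (DNMT_WT EB D8), and Tbx3 39.3 RPKM (TET_KO ESC D0) to 0.578 RPKM (DNMT_KO EB D2). The 4 ESC D0 groups held the first 4 places for each gene. Places 5 to 7 for Prdm14 were DNMT_KO at EB D8, EB D6 and EB D4, while for Tbx3 they were EB D6 of DNMT_WT, TET_WT and TET_KO. Of the 27 pairs of neighbours in each order, the libraries overlapped in 18 for Nanog, 19 for Prdm14 and 13 for Tbx3, so much of the fine order is not resolved. Nanog and Prdm14 followed each other more closely across the groups (Pearson r = 0.796 of log2(RPKM + 0.5) means over 28 groups) than either followed Tbx3 (0.0357 for Nanog and 0.442 for Prdm14). Many other genes were closer to each: of the 9904 ranked below, Prdm14 held place 70 for Nanog, and Nanog place 110 for Prdm14. These correlations are descriptions, since groups share lines and conditions.

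Likeness was ranked without genes of clone or predicted-gene names (Gm and digits, ending in Rik, or with a dot). Among the 9904 other genes with a highest group mean of at least 5 RPKM, the pattern most like that of Nanog was that of Esrrb (r = 0.907), then Dnajc6 (0.901), Sh3gl2 (0.9), Bcat1 (0.897) and Fbxo15 (0.890). For Prdm14 the nearest were Dlgap3 (0.934), Zfp59 (0.929), Nr5a2 (0.907), Kat6b (0.903) and Lrrc34 (0.901). For Tbx3 they were Tead4 (0.932), a transcription factor of the Hippo pathway, Smtnl2 (0.912), Alpk3 (0.894), Esyt1 (0.876) and Zc3hav1 (0.871).

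The neighbours within 100 kb did not share one pattern. Near Nanog lie Gdf3, a TGF-beta ligand 97402 bases away, whose group means had r = 0.803 with those of Nanog, and Dppa3, 77217 bases away (r = 0.519). Slc2a3, a glucose transporter 13176 bases from Nanog, had r = -0.268. Gdf3 at EB D8 was at 21.2 to 23.6 RPKM in DNMT_KO and 0.381 to 0.446 in DNMT_WT. Ncoa2, 11942 bases from Prdm14, had r = 0.0172. None of the 5 neighbours of Tbx3 passed the filter. One of them, Tbx3os1, overlaps Tbx3 on the opposite strand and reached 0.905 RPKM at most, and the libraries kept strand, but whether the authors' counting used it is not given in the sources used here.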

How the data were processed

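The authors deposited 1 table of log2 RPKM per gene and library for mouse bulk RNA-seq (oligo-dT selected, strand-specific, per the labels' protocols). The submitters' processing notes name HISAT2 2.1.0, Trim Galore 0.6.1, cutadapt 1.18 and the build GRCm38. Which counter and annotation were used, and whether counting used strand, is not given in the sources used here. Of 35269 entries, 39 with a repeat identifier were left out. Genes without a read are listed in the table as 0.9 reads, and the depth was taken from these entries. Among low values of genes with few reads in every library, 99.6% then came out as whole reads (tolerance 0.1 reads) or as 0.9 reads. These read counts cover counting error only.

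Values were taken back to RPKM and tested as log2(RPKM + 0.5) with limma 3.58.1 (R 4.3.3; trended, robust), over the 15267 genes that reached 1 RPKM in 2 or more libraries. A knockout or parental comparison was fitted on all 4 lines at its condition, and a change over time on all 4 lines at both conditions. On simulated data for DNMT_KO against DNMT_WT at EB D8 (15267 genes), the fit called 99 of 100 genes changed by a log2 value of 1.5, 100 of 100 changed by 3, and 1 unchanged gene. The simulated noise was normal with the spread of EB D8, where each group has 3 libraries. It does not cover conditions with a wider spread or groups of 2 libraries. Alternatives were pseudocounts of 0.1 and 1 RPKM, no filter, libraries centred on their medians, quantile normalization, a replicate block, 1 fit of all 28 groups, and leaving out each library. The name of 1 column matched its group but its replicate number matched no sample of that group, so it was used as an unnumbered replicate. No 2 replicates agreed within sampling noise (74 pairs, chi-square per gene of 2.18 or more).

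The members and gene lists were chosen with earlier results of these data known. From each list, at most 4 called genes were named, those that changed most, except the levels of Elf5, Tbx2, Gdf3, the ESC D0 markers and Gm42418, and Tbx21 in DNMT_KO, Tbx2 in TET_KO and Gab1 across conditions, which were chosen after their values were seen.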

Additional observations from a re-analysis of the deposited data

Results flagged for a closer look

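Of 57 tests for the 3 genes of whether an effect or a response differed between lines, 28 were called (limma, adjusted p of 0.029 or less). The same tests called 0.504% to 20.7% of all genes, depending on the comparison, as given with each result above. The TET_KO effect minus the DNMT_KO effect was -1.63 for Nanog, -2.0 for Prdm14 and -1.43 for Tbx3 at EpiLC D1. At EpiLC D2 it was -1.94 for Nanog and -1.61 for Prdm14. At EB D2 it was -2.0 for Nanog and -1.34 for Prdm14, of which the latter lost its call without any of 7 libraries (-1.11 to -1.49). At EB D4 it was -1.61 for Prdm14. At EB D6 it was -4.53 for Nanog, -2.86 for Prdm14 and 2.58 for Tbx3, and at EB D8 -3.16 for Nanog and -3.08 for Prdm14.

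The response from ESC D0 to EpiLC D1 in TET_KO, less that in TET_WT, was -1.63 for Nanog, -1.85 for Prdm14 and -1.78 for Tbx3. To EpiLC D2 it was -1.30 for Nanog and -1.26 for Prdm14, to EB D2 -1.79 and -1.27 in the same order, to EB D6 -1.80 for Nanog, and to EB D8 1.54 for Nanog and -1.19 for Tbx3. The response to EB D6 in DNMT_KO, less that in DNMT_WT, was 2.70 for Nanog, 2.08 for Prdm14 and -2.74 for Tbx3. To EB D8 it was 4.67 for Nanog and 3.38 for Prdm14.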

How the results depend on the processing

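Of 204 results for the 3 genes, 166 kept their direction and their side of the threshold in every setting tried, and all 204 did so in 1 fit of all 28 groups. The cause of the changes below was not tested.

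With a pseudocount of 0.1 RPKM more genes were called at the 7 conditions: 1935, 1904, 2221, 1918, 2362, 1443 and 2392 in TET_KO (ESC D0, EpiLC D1, EpiLC D2, EB D2, EB D4, EB D6 and EB D8; 1035, 1011, 1206, 1131, 1446, 766 and 1524 in the report's setting), and 381, 259, 534, 305 and 1480 in DNMT_KO from ESC D0 to EB D4 (158, 145, 243, 174 and 889). It also called Tbx3 in DNMT_KO from EB D4 to EB D6 (1.12), the response of Tbx3 to EB D4 in TET_KO less that in TET_WT (1.181), Prdm14 in DNMT_WT from EB D6 to EB D8 (-1.76), and Prdm14 at EpiLC D2 against EB D2 in TET_WT (-1.02) and TET_KO (-1.57). With a pseudocount of 1 RPKM the counts were 637, 647, 753, 666, 947 and 449 in TET_KO from ESC D0 to EB D6, and 94, 82, 134, 87 and 557 in DNMT_KO from ESC D0 to EB D4. Calls ended for Tbx3 in TET_KO at EB D4 (0.90), Prdm14 in DNMT_KO at EB D4 (0.97), Prdm14 between the parents at EB D4 (-0.90), Tbx3 in TET_WT from ESC D0 to EB D8 (-0.99), Tbx3 in DNMT_KO from EB D2 to EB D4 (0.77), Prdm14 in DNMT_WT from EB D4 to EB D6 (-0.91), Prdm14 in TET_WT from EB D6 to EB D8 (-0.70) and the response of Prdm14 to EpiLC D2 in TET_KO less that in TET_WT (-0.84). Without the filter 3 Prdm14 calls ended: the difference between knockout effects at EB D2 (-1.34, adjusted p = 0.11), DNMT_KO at EB D4 (1.09, adjusted p = 0.063) and the parents at EB D4 (-1.14, adjusted p = 0.1).

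With libraries centred on their medians 7 uncalled values near 0 changed sign: Nanog in TET_KO at ESC D0 (-0.022), Tbx3 in TET_KO at EpiLC D2 (-0.049), Nanog between the parents at EB D4 (0.066), Tbx3 in TET_KO from EB D2 to EB D4 (-0.023), Nanog in DNMT_KO from EB D4 to EB D6 (-0.0029), Prdm14 in TET_KO from EB D6 to EB D8 (-0.051) and the difference between knockout effects on Tbx3 at ESC D0 (-0.093). Tbx3 lost its call in TET_KO at EB D4 (0.79) and in DNMT_KO from EB D2 to EB D4 (0.89), and Prdm14 in DNMT_WT from EB D6 to EB D8 gained one (-1.08). Quantile normalization changed the sign of 7 uncalled values: Nanog between the parents at ESC D0 (-0.12) and EB D4 (0.13), Tbx3 in TET_KO at EpiLC D2 (-0.19) and from EB D2 to EB D4 (-0.094), Prdm14 in TET_KO from EB D6 to EB D8 (-0.115), Prdm14 in DNMT_KO at EpiLC D2 against EB D2 (0.023), and the response of Nanog to EpiLC D1 in DNMT_KO less that in DNMT_WT (0.075). It ended the calls of Nanog in TET_KO at EpiLC D2 (-0.86), its response to EpiLC D2 in TET_KO less that in TET_WT (-0.92), Tbx3 in TET_KO at EB D4 (0.77), Tbx3 in TET_WT from ESC D0 to EB D8 (-0.95) and Tbx3 in DNMT_KO from EB D2 to EB D4 (0.95). It added those of Nanog between the parents at EB D8 (1.03), Nanog in TET_WT from ESC D0 to EpiLC D1 (-1.25), Nanog in DNMT_KO from EB D2 to EB D4 (1.03) and Prdm14 in DNMT_WT from EB D6 to EB D8 (-1.06).

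Replicate numbers showed no steady pairing of the samples. In 0 of the 9 pairs of groups with 3 shared numbers did all 3 same-numbered libraries correlate above 0.1. In 1 of these 9 every library correlated best with its own number. Over all 14 pairs of groups r ran from -0.241 to 0.289, and in the DNMT lines at EpiLC D2 it was 0.289, 0.107 and 0.071. With a replicate block Prdm14 in DNMT_KO at EpiLC D1 (0.0032), Tbx3 between the parents at EB D4 (-0.053) and the response of Nanog to EpiLC D1 in DNMT_KO less that in DNMT_WT (0.037) changed sign, the Prdm14 difference between knockout effects at EB D2 lost its call (-1.11, adjusted p = 0.081), and 82 genes were called in DNMT_KO at EpiLC D1.

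Leaving out 1 library at a time changed the sign or the call of 31 results in at least 1 case, with the following ranges. For Nanog they were 0.79 to 1.06 in DNMT_KO at EB D4 against EB D2, -0.12 to 0.11 between the parents at EB D4, 0.86 to 1.01 between the parents at EB D8, -0.013 to 0.10 between the parents at ESC D0, -1.01 to -0.95 in TET_WT at EpiLC D1 against ESC D0, -0.088 to 0.025 between knockout effects at ESC D0, and -0.13 to 0.069 for the response to EpiLC D1 in DNMT_KO less that in DNMT_WT. For Prdm14 they were -0.35 to 0.11 in DNMT_KO at EB D2, -0.0956 to 0.0299 in DNMT_KO at EpiLC D1, -0.33 to 0.13 in DNMT_KO at EpiLC D2 against EB D2, -1.27 to -0.99 in DNMT_WT at EB D6 against EB D4, -1.10 to -0.75 in DNMT_WT at EB D8 against EB D6, -1.63 to -1.11 between knockout effects at EB D2, -0.25 to 0.27 in TET_KO at EB D8 against EB D6, -1.11 to -0.70 in TET_KO at EpiLC D2 against EB D2, 0.60 to 1.09 between the parents at EB D2, -1.31 to -0.81 between the parents at EB D4, -1.18 to -0.91 in TET_WT at EB D8 against EB D6, -1.16 to -0.67 in TET_WT at EpiLC D2 against EB D2. For Tbx3 they were 0.97 to 1.06 in DNMT_KO at EB D4 against EB D2, 0.94 to 1.03 in DNMT_KO at EB D6 against EB D4, -1.13 to -0.95 in TET_KO at EB D8, -0.23 to 0.32 in TET_KO at EpiLC D2, -0.17 to 0.099 between the parents at EB D4, -0.15 to 0.39 between the parents at EpiLC D2, -1.11 to -0.92 in TET_WT at EB D8 against ESC D0, -1.54 to -0.999 in TET_WT at EpiLC D2 against EB D2, -0.039 to 0.087 between knockout effects at ESC D0, and, for the response in TET_KO less that in TET_WT, -0.37 to 0.17 to EpiLC D2 and 0.86 to 1.12 to EB D4. The count of genes called in DNMT_KO at EB D2 ranged from 135 to 372.

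Depth limits Prdm14 most: in 20 of 79 libraries it rests on fewer than 20 reads.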
